A study of Mus musculus with 6 samples.

Results

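The genes described here are 9 transcription factors with known roles in the choice between granulocyte and monocyte fate: Gfi1, Gfi1b, Cebpa, Cebpb, Cebpd, Cebpe, Spi1, Klf4 and Maf. They were chosen by name. A gene was measured where a probe set of the array was paired with exactly 1 gene symbol, and where several were, the one with the highest mean over the 6 arrays was used. This gave values for 8 of the 9 factors among 30142 genes in all, and Spi1 was the 1 without a probe set of its own under this rule.

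The samples were mouse acute myeloid leukemia cells made by infecting marrow cells with a retrovirus, MSCV-MLL-AF9-IRES-GFP, that carries the MLL-AF9 fusion oncogene and green fluorescent protein (GFP). All 6 samples carried this fusion and were GFP-positive cells sorted from the marrow of mice that had received the leukemia by secondary transplant. In 3 of them the leukemia was Ppara+/+ and in 3 it was Ppara-/-, lacking the nuclear receptor that senses fatty acids. The labels give no age, and nothing in them ties a replicate to its own mouse or its own primary leukemia. The p-values therefore cover only the spread of these 6 samples, which may be technical, and the number of arrays limits the precision.

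Granulocytes and monocytes arise from a shared progenitor in the marrow. C/EBP alpha, encoded by Cebpa, and PU.1, encoded by Spi1, are needed to form that progenitor. GFI1 is a zinc finger repressor that favours granulocytes and silences genes of monocytes, and C/EBP epsilon, encoded by Cebpe, acts later in granulocyte maturation. KLF4 and the factors of the MAF family favour monocytes and macrophages. C/EBP beta and C/EBP delta are induced by inflammatory signals in both lineages, and GFI1B, the close relative of GFI1, acts in erythroid cells and megakaryocytes.

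Promoter sequences from RefSeq (GRCm38.p6) were found for 5 of the 9 factors, and 3 are shown: Gfi1 and Klf4, the members with the largest differences between the genotypes, and Gfi1b, which holds the core letters of a GFI1 site. Each is the 250 bases before a start of the gene, 5′ to 3′ on the strand of the gene. RefSeq gives Gfi1 a second start, and its window, chr5:107724344-107724593 on the minus strand, is not printed. Capitals mark matches on either strand to 5 motifs: AAATC (GFI1), TTGCNNAA (C/EBP), GAGGAAG (PU.1), CCACCC (KLF) and TGCTGAC (MAF), of which none contains another.
Gfi1, chr5:107725806-107726055, minus strand: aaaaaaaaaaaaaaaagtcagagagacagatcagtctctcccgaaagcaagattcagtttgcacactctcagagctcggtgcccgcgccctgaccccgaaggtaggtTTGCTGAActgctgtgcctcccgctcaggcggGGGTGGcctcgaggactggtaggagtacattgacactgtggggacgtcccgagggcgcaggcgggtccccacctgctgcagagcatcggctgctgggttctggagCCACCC
Gfi1b, chr2:28621983-28622232, minus strand: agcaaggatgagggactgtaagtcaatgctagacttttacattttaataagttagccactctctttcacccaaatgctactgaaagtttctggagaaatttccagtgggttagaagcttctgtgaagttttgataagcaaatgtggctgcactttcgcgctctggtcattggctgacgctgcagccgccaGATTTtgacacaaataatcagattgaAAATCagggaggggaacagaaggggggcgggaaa
Klf4, chr4:55532476-55532725, minus strand: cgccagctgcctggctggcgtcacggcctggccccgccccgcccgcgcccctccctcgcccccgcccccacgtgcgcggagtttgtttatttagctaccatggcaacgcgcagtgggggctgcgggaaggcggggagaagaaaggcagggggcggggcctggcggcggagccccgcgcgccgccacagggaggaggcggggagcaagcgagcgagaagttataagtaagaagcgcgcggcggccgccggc

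The Gfi1 window printed held 1 match to the C/EBP letters, which 9.56% of 32851 promoter windows of this length hold, and 2 to the KLF letters, which 28.1% hold, while the window of the second Gfi1 start held 0 matches to the 5 motifs. The Gfi1b window held 2 matches to the GFI1 letters, found in 32.7% of windows. The Klf4 window held none of the 5, with a GC content of 74.0% against a median of 52.4%. A match is a description of the letters and not of binding. The motif letters of PU.1 (10.6% of windows) and MAF (3.81%) were in none of the 3.

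Cells of the labelled kind were checked by their markers. Of 7 measured markers of myeloid blasts, 6 had a mean signal above 7.91, the lowest 95th percentile of the negative-control probe sets on any array, which is used here as the mark of a clear signal. The other was Cd34, at 7.90. Csf3r and Mpo are also followed below as granulocyte genes and Itgam as a monocyte gene, so these markers do not separate blasts from other myeloid cells. Of 39 measured markers of T, B, NK, erythroid, megakaryocytic, dendritic cells and mast cells, basophils or eosinophils, 0 had a mean above 7.91. The highest stood at 7.70. The mean over those 39 markers ran from 4.82 to 5.02 on the Ppara+/+ arrays and from 4.81 to 5.07 on the Ppara-/- arrays. Ppara itself was at 5.08 ± 0.18 in Ppara+/+ and 5.19 ± 0.12 in Ppara-/- cells (SD, n = 3), close to the negative-control medians, and since the part of the gene that the probes match is not known, this does not check the labels. Negative controls were brightest on Ppara+/+ replicate 1 (median 5.16) and Ppara-/- replicate 2 (median 4.99), against 4.63 to 4.81 on the other arrays.

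None of the 8 measured factors passed the test between genotypes, but Gfi1 and Klf4 stood apart from the rest in opposite directions. Gfi1 had a 1.41-fold higher signal in Ppara-/- cells and Klf4 a 1.55-fold lower one, while the other 6 differed by at most 0.23 on the log2 scale. Limma, with p adjusted over all 30142 genes by Benjamini-Hochberg, called 38 genes (0.126%) at an adjusted p under 0.05, 18 of them higher (0.0597%) and 20 lower (0.0664%) in Ppara-/- cells. At an unadjusted p under 0.05 stood 2 of the 8 factors, Gfi1 and Klf4, against 5.78% of all genes, and against 12.4% of the 4379 genes with a mean signal above 7.91. The 3 arrays of each genotype did not overlap for 1 of the 8 factors, Gfi1, against 8.78% of all genes. Of the 8 differences 4 were positive and 4 negative, with a median of -0.01, where the median over all genes was 0.02.

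**Figure D1:**
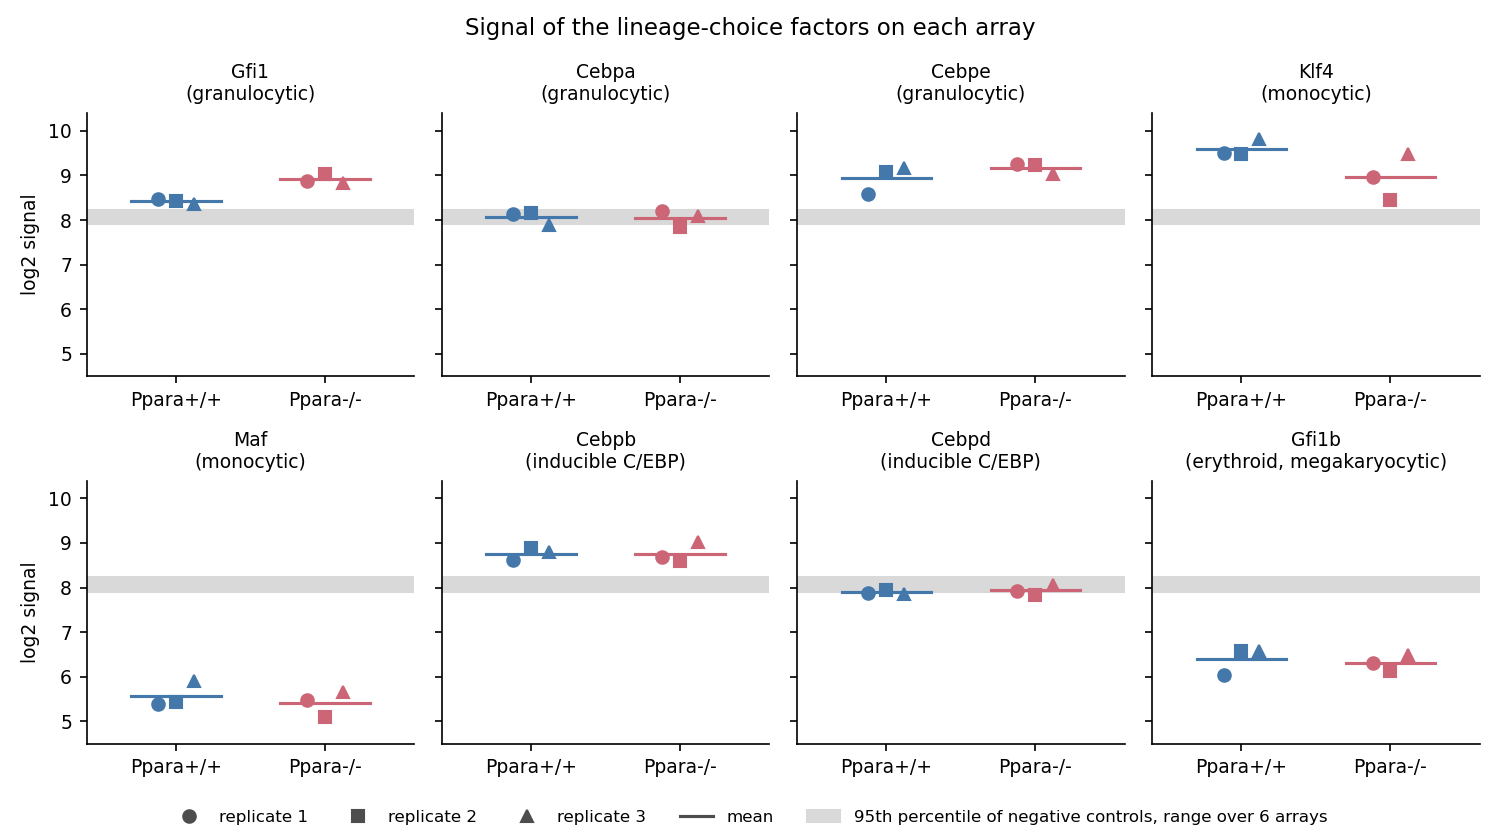
Log2 signal of the 8 measured factors (vertical axis) on the 3 Ppara+/+ and 3 Ppara-/- arrays (horizontal axis), with a marker for each replicate number, a line at the mean and a grey band at the 95th percentile of the negative controls (7.91 to 8.23 over the arrays). The Gfi1 values of the genotypes are separate, Klf4 is lowest on Ppara-/- replicate 2, and Maf and Gfi1b lie under the band on every array.

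Among the granulocytic factors, Gfi1 read 8.47, 8.43 and 8.36 on the Ppara+/+ arrays and 8.88, 9.03 and 8.84 on the Ppara-/- arrays. Every Ppara-/- value lay above every Ppara+/+ value, and the gap between the genotypes was wider than the range within either. The log2 difference was 0.50 (SE 0.10, 95% interval 0.27 to 0.73; limma unadjusted p = 0.000965, adjusted p = 0.196). An exact two-sided permutation test gave p = 0.1, the smallest that 3 arrays against 3 allow. Gfi1 was among the steadier genes within a genotype: its within-genotype SD of 0.0810 was at the 7.17th percentile of the genes with a clear signal. By its unadjusted p it ranked 148 of 30142, and by the size of its difference 808.

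Gfi1 was called in 1 of 17 other fits, the one with array weights (limma adjusted p = 0.0280), which gave Ppara+/+ replicate 1 a weight of 0.245 and Ppara-/- replicate 1 a weight of 3.60. In the other 16 the adjusted p lay between 0.101 and 0.684. The difference was positive in all 17 and ran from 0.44, without Ppara-/- replicate 2, to 0.54, without Ppara-/- replicate 3. Fits among the 17 that could change only the SE and p left it at 0.50, so their sign adds nothing.

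Cebpe, the factor of late granulocyte maturation, read 8.59, 9.07 and 9.17 in Ppara+/+ and 9.26, 9.23 and 9.04 in Ppara-/- cells. The low value was Ppara+/+ replicate 1, and the other 5 arrays overlapped. The log2 difference was 0.23 (SE 0.16; limma adjusted p = 0.997), and without Ppara+/+ replicate 1 it was 0.06. Cebpa, which is needed to form the shared progenitor, read 8.14, 8.16 and 7.88 against 8.20, 7.84 and 8.08. Its genotypes overlapped fully, with a difference of -0.02 (SE 0.13, 95% interval -0.32 to 0.28), and it was above the 95th percentile of the negative controls of its own array on 3 of 6 arrays.

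Of the monocytic factors, Klf4 read 9.50, 9.48 and 9.82 in Ppara+/+ and 8.97, 8.45 and 9.48 in Ppara-/- cells. The genotypes touched at 9.48, shared by Ppara+/+ replicate 2 and Ppara-/- replicate 3, and the lowest value was Ppara-/- replicate 2. The log2 difference was -0.63 (SE 0.23, 95% interval -1.17 to -0.10; limma unadjusted p = 0.0257, adjusted p = 0.748; exact permutation p = 0.2). Klf4 was the most variable factor within a genotype, at the 90.9th percentile of the genes with a clear signal, and its Ppara-/- values spanned 1.03.

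The Klf4 difference was negative in all 17 other fits and past the threshold in 0. Fits among the 17 that could change only the SE and p left it at -0.63. It was -0.38 when Ppara-/- replicate 2 was left out, and -0.89 when Ppara-/- replicate 3 was. Leaving out both of the arrays with the brightest negative controls gave -0.43 (SE 0.21) for Klf4 and 0.47 (SE 0.08) for Gfi1.

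Maf, a factor of macrophages, read 5.38, 5.43 and 5.91 against 5.48, 5.09 and 5.65, under the 95th percentile of the negative controls on every array. The difference of -0.17 (SE 0.19) lay within the spread of the replicates, and at this signal a change could be missed. The 1 probe set that carries the Spi1 symbol also carries Sfpi1, an older name of the same gene in the RefSeq table, under a second gene ID. Its values, outside the rule and looked at after it was applied, were 10.90, 10.61 and 10.75 in Ppara+/+ and 10.58, 10.67 and 10.35 in Ppara-/- cells. The genotypes overlapped, with a difference of -0.22 (SE 0.13; limma adjusted p = 0.997 with this probe set added).

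The inducible factors showed no separation of the genotypes. Cebpb read 8.61, 8.88 and 8.79 in Ppara+/+ and 8.68, 8.59 and 9.02 in Ppara-/- cells, a difference of 0.00 (95% interval -0.31 to 0.32). Cebpd read 7.87, 7.95 and 7.86 against 7.92, 7.83 and 8.06, a difference of 0.04 (95% interval -0.19 to 0.28), with 1 of 6 arrays above the 95th percentile of its own negative controls. The genotypes overlapped in both genes, and the intervals still allow a change of about the size measured for Cebpe.

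Gfi1b, the erythroid and megakaryocytic relative of Gfi1, read 6.05, 6.57 and 6.57 in Ppara+/+ and 6.30, 6.13 and 6.49 in Ppara-/- cells. It lay under the 95th percentile of the negative controls on every array, the genotypes overlapped, and the difference was -0.09 (SE 0.17, 95% interval -0.47 to 0.29).

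**Figure D2:**
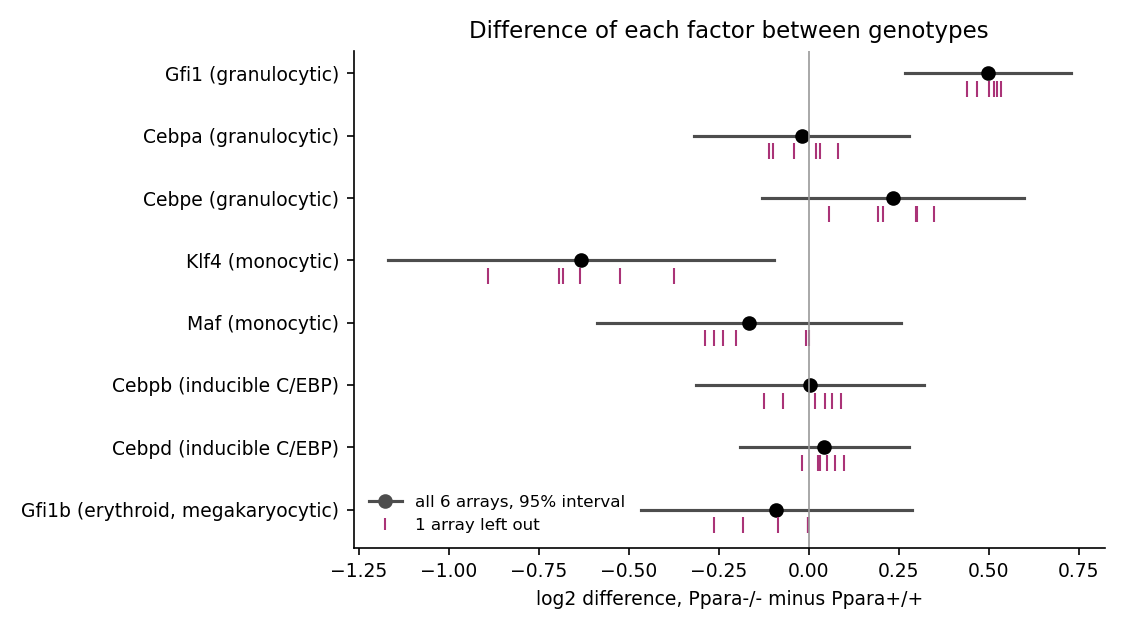
Log2 difference between Ppara-/- and Ppara+/+ arrays (horizontal axis) for each of the 8 factors, with the 95% interval from limma over 6 arrays (line) and the values with 1 array left out (purple ticks). The unadjusted intervals of Gfi1 (0.27 to 0.73) and Klf4 (-1.17 to -0.10) do not include 0, and those of the other 6 do.

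The granulocytic factors were then set against the monocytic ones within each array, as the mean log2 signal of Gfi1, Cebpa and Cebpe minus that of Klf4 and Maf. Only the change of this value between arrays can be read, since signals of different probe sets have no common scale, and a score over chosen genes was given no p. It was 0.96, 1.10 and 0.61 on the Ppara+/+ arrays and 1.56, 1.93 and 1.09 on the Ppara-/- arrays. The Ppara-/- mean was higher by 0.64 (1.52 ± 0.42 against 0.89 ± 0.25, SD, n = 3), and the genotypes overlapped by the lowest Ppara-/- array, replicate 3, and the highest Ppara+/+ array, replicate 2. With 1 array left out the change ran from 0.43 to 0.85.

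In all 6 pairs of a granulocytic with a monocytic factor this value was higher on average in Ppara-/- cells, by amounts that depended on the pair. Since they are made from 5 genes, they are not independent of each other. Gfi1 minus Klf4 was -1.03, -1.05 and -1.46 in Ppara+/+ and -0.09, 0.58 and -0.64 in Ppara-/- cells, a change of 1.13. The change was 0.87 for Cebpe minus Klf4, 0.66 for Gfi1 minus Maf, 0.61 for Cebpa minus Klf4, 0.40 for Cebpe minus Maf and 0.15 for Cebpa minus Maf. The genotypes did not overlap in 2 of the 6, both with Gfi1, whose own values already did not overlap. The 8.78% of all genes without overlap is a share of single genes, and none was computed for pairs. For Cebpa minus the Spi1 probe set, the balance of the factors of the shared progenitor, the values overlapped, with a change of 0.20.

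**Figure D3:**
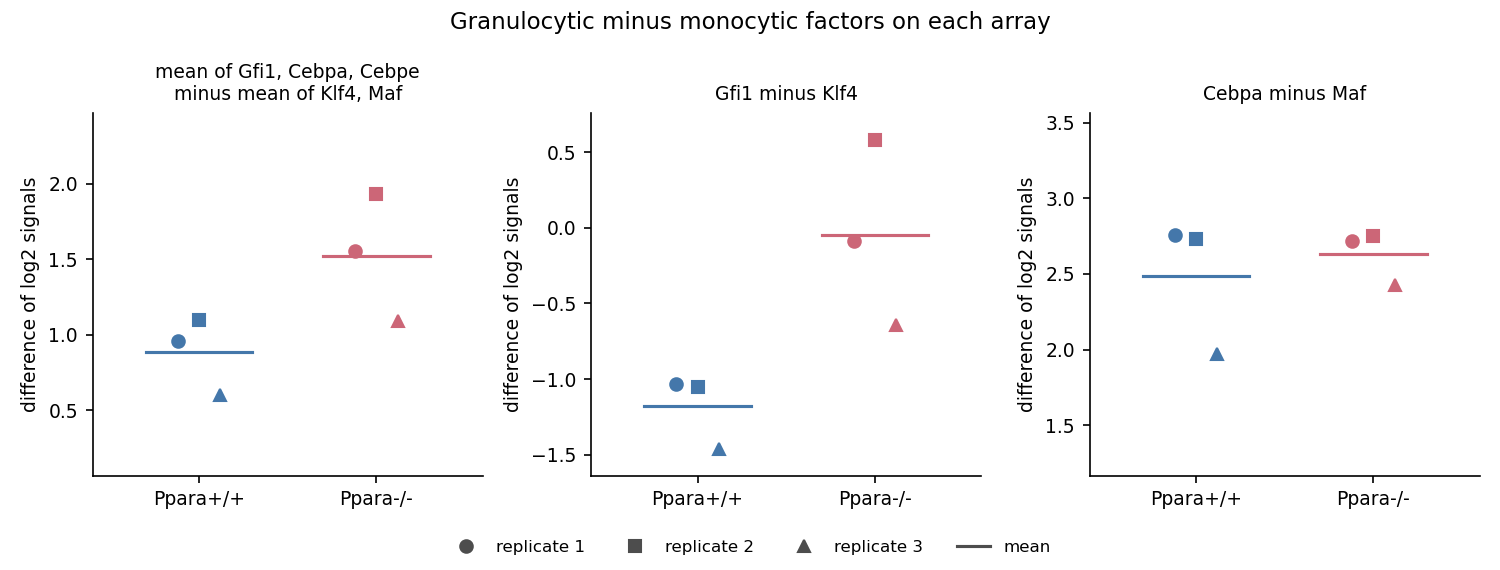
Difference of log2 signals within each array (vertical axes, each spanning 2.4 units) by genotype, for all granulocytic against all monocytic factors, for the pair with the largest change (Gfi1 minus Klf4) and for the one with the smallest (Cebpa minus Maf). Points are arrays, marked by replicate number, and lines are means, which differ by 0.64, 1.13 and 0.15.

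Genes that work with these factors or that they are known to control were followed in 6 lists, with 100 measured genes that are not themselves among the 9. None of the 100 passed over all genes (38 of 30142, 0.126%, did). An unadjusted limma p under 0.05 was found for 3 with a positive and 10 with a negative difference, against 3.17% and 2.61% of all genes. The lists were brighter than the rest, with a mean signal above 7.91 in 51 of the 100, against 4379 of 30142 genes. Of those 4379 genes 12.4% reached this p in either direction. All 3 Ppara-/- values lay above the Ppara+/+ values in 2 and below them in 11, against 5.15% and 3.63% of all genes, and the median difference was 0.02. Over all genes, 57.3% of the differences were positive. The lists were chosen with earlier results of these data known, so these counts do not test them.

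Of the genes described as repressed by GFI1, 12 were measured, 5 with a positive and 7 with a negative difference and a median of -0.04. Csf1r, the receptor of the monocyte growth factor M-CSF, read 9.38, 9.03 and 9.44 in Ppara+/+ and 8.54, 7.75 and 8.75 in Ppara-/- cells, without overlap (log2 difference -0.94, SE 0.24; limma adjusted p = 0.361). Irf8, the interferon regulatory factor of monocyte and dendritic cell fate, read 8.84, 8.91 and 8.88 against 8.47, 7.13 and 8.64. Its difference of -0.80 (SE 0.34, limma adjusted p = 0.853) was -0.32 (SE 0.12) without Ppara-/- replicate 2. That was the array on which Klf4 and Csf1r were lowest too. The cell cycle inhibitor Cdkn1a was lower (8.32 ± 0.28 against 9.18 ± 0.31; SD, n = 3; limma adjusted p = 0.221) and the transcription factor Ets1 was higher (8.18 ± 0.20 against 7.53 ± 0.28; limma adjusted p = 0.315). The list therefore held genes of both signs. Egr1, Egr2, Csf1 and Meis1, also described as GFI1 targets, had positive differences of 0.18 to 0.42. The genotypes overlapped in each of these (limma unadjusted p = 0.151 to 0.462), and with array weights Egr1 and Egr2 were at -0.10 and -0.11.

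The corepressors of GFI1 differed little: of 9 measured, 6 were positive and 3 negative, with a median of 0.01 and no unadjusted p under 0.05. The histone demethylase Kdm1a was at 6.86 ± 0.06 in Ppara-/- and 6.83 ± 0.13 in Ppara+/+ cells (SD, n = 3), and its partner Rcor1 had a difference of 0.08 (SE 0.14). The deacetylase Hdac2 had the smallest p of the list, with a difference of -0.18 (SE 0.21). Of the 9 corepressors 3 had a mean signal above 7.91. Kdm1a and Hdac2 lay under the 95th percentile of the negative controls on every array, and at such signals a change could be missed.

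Granulocyte genes known as C/EBP targets had 9 positive and 10 negative differences among 19 measured, with a median of -0.05. Csf3r, the receptor of the granulocyte growth factor G-CSF, read 9.62, 9.78 and 9.86 in Ppara+/+ and 10.10, 10.07 and 10.20 in Ppara-/- cells, without overlap (log2 difference 0.37, SE 0.11; limma adjusted p = 0.470). The interleukin-6 receptor Il6ra was lower (8.81 ± 0.23 against 9.61 ± 0.26; SD, n = 3; limma adjusted p = 0.201), as were the collagenase Mmp8 (difference -0.65) and the siderophore binder Lcn2 (difference -0.30). The primary granule genes Elane and Mpo overlapped between the genotypes, with differences of -0.15 and -0.05.

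Monocyte and macrophage genes known as targets of PU.1, KLF4 or MAF proteins had 9 positive and 11 negative differences among 20 measured, with a median of -0.06. An unadjusted limma p under 0.05 was found for 5 of the 20, all with negative differences, against 2.61% of all genes. In either direction, 12.4% of all genes with a mean signal above 7.91 reached this p. The list was chosen with earlier results of these data known, so these shares do not test it. Smallest were the p-values of Cd68, Msr1, Adgre1 and Csf1r, and Msr1 lay under the 95th percentile of the negative controls on every array. Tlr4 and Ccr2 had the largest positive differences of the list, 0.50 and 0.37, with overlap of the genotypes. Both also lay under the 95th percentile of the negative controls on every array. The lysosomal glycoprotein Cd68 read 9.75, 9.55 and 9.81 in Ppara+/+ and 9.04, 8.76 and 9.13 in Ppara-/- cells, without overlap (difference -0.73, SE 0.13; limma adjusted p = 0.135). Adgre1, the F4/80 antigen of macrophages, was at 7.92 ± 0.22 against 8.58 ± 0.27 (SD, n = 3; limma adjusted p = 0.312). The marrow of the host also holds resident macrophages, which lack the virus, and how fully the sort for GFP removed them was not tested. Of 9 measured markers of these cells, Adgre1 alone had a mean signal above 7.91. The mean over the 9 markers was 5.07, 5.24 and 5.30 on the Ppara+/+ and 5.05, 4.93 and 5.10 on the Ppara-/- arrays. The part of such cells in the lower Klf4 signal was not tested. Fewer cells of a type and less RNA per cell cannot be told apart in these bulk samples.

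Other lineage factors and the relatives of the 9 made up the last lists. Of 24 other myeloid factors 15 were positive and 9 negative (median 0.04), and Irf8 was the 1 with an unadjusted p under 0.05. Over all genes, 57.3% of the differences were positive. Among 22 other members of the C/EBP, KLF, MAF and SPI families, 6 of them with a mean signal above 7.91, 16 were positive and 6 negative (median 0.04). Klf11 had the smallest p (8.34 ± 0.28 in Ppara-/- against 7.91 ± 0.29 in Ppara+/+ cells; SD, n = 3; limma adjusted p = 0.861), with a difference of opposite sign to that of Klf4. Klf2 and Klf6, relatives of Klf4 with bright signals, had differences of 0.10 and -0.07.

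**Figure D4:**
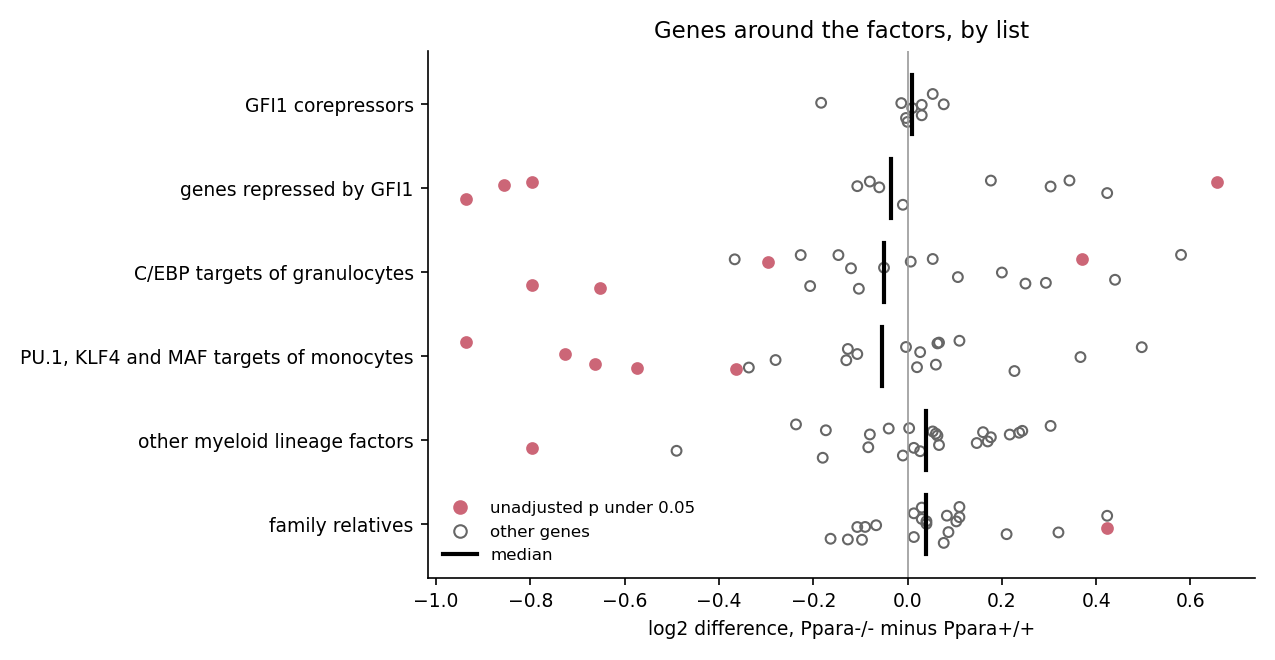
Log2 difference between Ppara-/- and Ppara+/+ arrays (horizontal axis) of every measured gene in the 6 lists around the factors, with filled points for an unadjusted limma p under 0.05 and a black bar at the median of each list. The list medians lie between -0.06 and 0.04. The 5 filled points among the 20 genes of the monocyte list are all negative, where 2.61% of all genes are lower at this p. Of genes with a mean signal above 7.91, 12.4% reached this p in either direction. Csf1r stands in the monocyte list and in the list of genes repressed by GFI1. The lists were chosen with earlier results of these data known, so these shares do not test them.

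Genes whose pattern over the 6 arrays was most like that of a factor were sought by Pearson's r among 1362 genes with a mean signal above 7.91 and an SD of at least 0.2. Because the arrays fall into 2 genotypes, such an r mixes the difference between genotypes with the variation within them and is given only to describe likeness. The genes most like Gfi1 were Sp110 (r = 0.994), the myeloid hexokinase Hk3 (r = 0.984), Htra2 (r = 0.979) and Fam160a2 (r = 0.975). The genes most opposite to it were the phosphatase Dusp7 (r = -0.988), Cd68 (r = -0.979), the Fc receptor subunit Fcer1g (r = -0.976) and the lysosomal protease Ctsh (r = -0.975).

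For Cebpe the most alike was Ly6g, the neutrophil surface antigen (r = 0.972), with Ly6a2, Tspo and Cdkn2c after it. For Klf4 it was Myadm (r = 0.975), followed by the thrombomodulin gene Thbd, the inflammasome sensor Nlrp3 and the arginine deiminase Padi2. For Maf the r values ran from 0.958 for Prex1 to 0.933 for the nuclear receptor Nr4a1, with Card19 and the AP-1 factor Fosl2 between them. None of these 20 genes passed over all genes, and the smallest adjusted p among them was that of Dusp7 (limma adjusted p = 0.0541).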

How the data were processed

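The 6 samples were hybridized to Affymetrix arrays and grouped by their titles. The deposited table holds log2 signals for each probe set. RMA (background correction, quantile normalization and probe summary) and limma are named in the submitters' processing notes, with no version. Quantile normalization would remove a shift of most genes in 1 direction. The array model is uncertain, since the table's identifiers do not have the form of the model named in the design text, and the build is not given in the sources used here. Of 72688 rows 6732 were controls, 30604 carried 1 symbol and 2146 several. Older symbols were replaced by RefSeq's (GRCm38.p6), matched on gene ID. Each gene was tested by a two-sided test with limma 3.58.1 under R 4.3.3 (functions lmFit and eBayes, no covariate, adjusted p under 0.05), after a check on simulated data. No dim gene was left out.

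The members and gene lists were chosen with earlier results of these data known. From each list up to 4 genes were named, those with the smallest p, and for Gfi1, Cebpe, Klf4 and Maf the 4 genes of highest r over the arrays (for Gfi1 also of lowest), leaving out gene models, noncoding RNA, olfactory and vomeronasal genes; other names were added after their values were seen. Alternatives were a trended and robust prior, 3 normalizations, array weights, dim genes left out, a gene's probe sets averaged, a block for the replicate number, the negative-control median as a covariate, and arrays left out. The Spi1 probe set was added after the data were seen.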

Additional observations from a re-analysis of the deposited data

How the results depend on the processing

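None of the 8 factors was called in 16 of 17 other limma fits, and 1, Gfi1, was with array weights. In that fit 271 genes were called, against 38, among them 3 of the lists around the factors (0 otherwise): Cdkn1a, Il6ra and Cd68. The count of genes called was 70 with a trended and robust prior, 23 after quantile normalization again, 14 after cyclic loess, 13 after centring on medians and 1 with dim genes left out, which also removed Maf and Gfi1b, so the score of granulocytic minus monocytic factors could not be computed there. Without the 2 arrays of brightest negative controls limma called 0 genes (2870 at an unadjusted p under 0.05). With 1 array left out it called 6 to 38: leaving out Ppara-/- replicate 1 gave 6, Ppara+/+ replicate 3 gave 13, and either of the other Ppara-/- arrays gave 17. The score moved by less than its spread in each fit that gave it (0.43 to 0.85). Several of these fits could not move it and left it at 0.64. The score was 0.77 with Gfi1 and Cebpe against Klf4 and Maf and 0.58 with the Spi1 probe set added. Over all genes, same-numbered arrays of the genotypes did not deviate together (correlations of -0.33, -0.47 and 0.11). With 3 arrays per genotype this cannot settle whether a shared number marks a shared batch. With the replicate number as a block 12 genes were called. The block lowered the SE of Klf4 from 0.23 to 0.16 and of Csf1r from 0.24 to 0.15, and raised that of Gfi1 from 0.10 to 0.12. Single genes were refitted under these alternatives for 92 genes, among them all those with values here but Spi1, Tlr4 and Ccr2. Of the 92, 12 passed under some alternative, each with array weights only. Maf, Gfi1b and, on most arrays, Cebpd lay within the signal of the negative controls, which limits what can be seen of them.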

Other observations

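The blast markers did not move as a group. Kit, the receptor of stem cell factor, read 8.12, 7.62 and 7.60 in Ppara+/+ and 8.22, 8.55 and 8.19 in Ppara-/- cells (log2 difference 0.54; limma adjusted p = 0.546). Cd34, a surface antigen of progenitors, went the other way, at 8.22, 8.37 and 8.41 against 7.89, 6.50 and 7.99 (log2 difference -0.87; limma adjusted p = 0.797). Without Ppara-/- replicate 2 the Cd34 difference was -0.39 (SE 0.12, against 0.34 with all 6 arrays). Cpa3, the mast cell carboxypeptidase, had the largest difference of any marker followed here, at 6.54, 7.17 and 6.40 against 5.26, 3.88 and 6.08 (log2 difference -1.63; limma adjusted p = 0.493), under the 95th percentile of the negative controls on every array. Its difference was -1.03 (SE 0.29, against 0.48 with all 6 arrays) when Ppara-/- replicate 2 was left out. Of 7 measured markers of mast cells, basophils and eosinophils, Cpa3 was the 1 with a negative difference, against 6 positive (median 0.21). Cpa3, Cd34, Irf8, Csf1r and Klf4 were all lowest on Ppara-/- replicate 2, one of the 2 arrays with the brightest negative controls.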
